A study of Mus musculus with 5 samples.

Results

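The transcriptome of undifferentiated MEL cells was described from 1 deposited table of mRNA abundance, in which each row is a gene and each value is that gene's RPKM (reads per kilobase of exon, scaled to library size). All 18349 listed genes were taken, which are all the genes with an abundance value in the series. MEL is an established mouse erythroleukemia line, and the name of the table marks it as day 0. The labels name no inducing agent, transgene or knockdown for these cells, which were grown in minimal essential medium with fetal bovine serum. The series holds 5 samples of this line, 3 of PABPC1 CLIP-seq, which are not analysed here, and 2 of mRNA-seq. For mRNA-seq, total RNA was passed over oligo dT beads, so transcripts with a poly(A) tail were selected, and the RNA was broken into fragments before libraries were made with a small-RNA kit. Both mRNA-seq samples share 1 pooled value a gene. Every level below is therefore a single number without a replicate error, and no test was made.

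Red cell precursors leave the progenitor state under the transcription factors GATA1, KLF1 and TAL1, which switch on globins, the heme pathway, iron uptake and the spectrin membrane skeleton. MEL cells are a widely used model of this step, because they grow as blocked proerythroblast-like cells and make hemoglobin only after a chemical inducer is added. The block is linked to the ETS factor PU.1 (Spi1), which the virus that gave rise to such leukemias activates, and PU.1 and GATA1 are known to oppose each other. The levels below show which parts of the erythroid program were already present in these cells and which were low.

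The depth behind the values could be judged from the smallest ones. Among genes whose versioned identifier matched the annotation, 100% of the 3560 with under 200 reads came out as whole numbers of reads, to within 0.01, at a step of 0.0284 RPKM a read for 1 kb of exon. That step stands for a library scale of 35251228 reads. A gene of 1 kb at an RPKM of 1 then rests on 35.3 reads, and 3 reads, the limit that a count of 0 allows, come to 0.0851 RPKM. Genes at 0 are not in the table, so "not listed" below means that no read was counted or that the gene was outside the authors' count. With the lengths of the annotation used here the reads of all genes sum to 2.43 times that scale, so the number of counted reads in all was not fixed. The RPKM values are used as the authors deposited them. Ratios between genes do not depend on the scale, but counts of genes past a fixed RPKM do.

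Abundance was spread over a wide range. The median listed gene had an RPKM of 6.62, and the quartiles were 0.407 and 28.0. At an RPKM of at least 1 there were 12473 genes, at 100 or more 1447 genes, and at 1000 or more 79 genes. The 100 genes with the highest values held 30.7% of the summed RPKM, and 454 genes held 50%. Of 22028 annotated protein-coding genes, 13407 were listed, with a median of 11.5 RPKM among those listed. When protein-coding genes not listed are counted at 0, 46.4% of protein-coding genes lay at 1 or more, 32.2% at 10 or more and 5.11% at 100 or more. These shares are the background for the gene lists below.

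**Figure D1:**
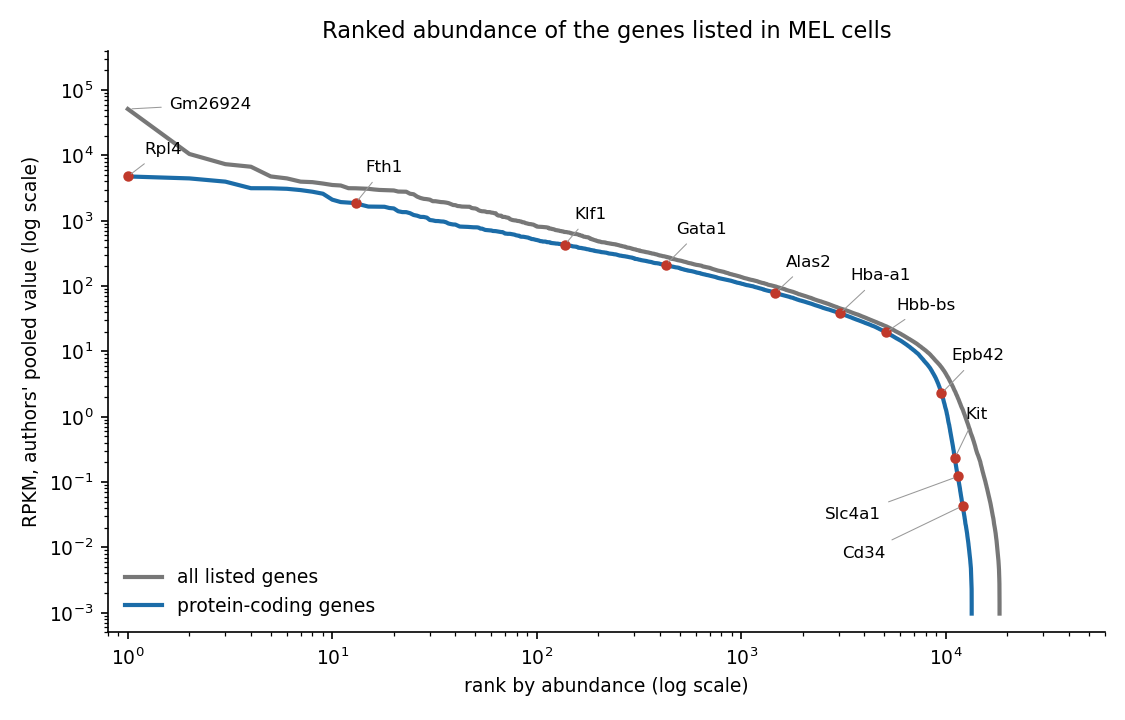
RPKM of each gene (log scale) against its rank (log scale), for all listed genes in grey and for protein-coding genes in blue, with named genes as red points. Gm26924 stands at 51288 RPKM at the top of all genes, the erythroid regulators Klf1 and Gata1 lie at 428 and 211, and Kit, Slc4a1 and Cd34 lie under 1.

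The protein-coding genes with the highest levels served protein synthesis. Rpl4, a protein of the large ribosomal subunit (chromosome 9, 64173375 to 64178666, mm10), led with 4768 RPKM. Eef1a1, the factor that brings aminoacyl-tRNA to the ribosome, followed with 4449 RPKM. Rpl8 stood at 3968, Rplp1 at 3150 and Rpl32 at 3140 RPKM, all of them large-subunit proteins. Eef2, which moves the ribosome along the mRNA, reached 2781 RPKM. Of the 20 highest protein-coding genes, those outside translation were of other kinds. Hsp90ab1, a cytosolic chaperone, had 3084 RPKM. Fth1, the heavy chain of the iron store ferritin, had 1865 RPKM, and Gpx1, a glutathione peroxidase that removes hydrogen peroxide, 1743 RPKM. Calr and Hspa5, chaperones of the endoplasmic reticulum, stood at 1649 and 1569 RPKM, and Pkm, the pyruvate kinase of glycolysis, at 1637 RPKM.

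Exon length differed between abundance classes. The 31 protein-coding genes at 1000 RPKM or more had a median exon length of 2007 nt. For the 1094 genes from 100 to 1000 RPKM the median was 3188.5 nt, and for the 5970 genes from 10 to 100 RPKM it was 4581 nt. Genes from 1 to 10 RPKM had a median of 4731.5 nt, but those under 1 RPKM one of 3489.5 nt, so length did not fall steadily with abundance. RPKM is itself divided by exon length, so a short gene needs fewer reads to reach a given value, and the part this plays was not tested.

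Many processed pseudogenes, which are intron-free genomic copies of mRNAs, carried high values, and some are shown by sequence because their identity with the parent gene bears on every level of those parents. Gm14303 (chromosome 2, 172509521 to 172509691, minus strand, GENCODE M21 on mm10) is 171 nt long and has the same letters as the whole reading frame of the ribosomal protein gene Rps29, with 0 mismatches. Gm14303 was listed at 7348 RPKM and Rps29 at 18.8 RPKM, so the copy stood 390 times higher than the gene. Rpl3, a large-subunit protein, and its copy Rpl3-ps1 on the X chromosome differ at 2 of 1210 aligned bases. A stretch of 90 nt that holds 1 of these is shown for the gene and for the copy (X, 13202583 to 13202672, plus strand), with the base that differs in capitals.
Rpl3: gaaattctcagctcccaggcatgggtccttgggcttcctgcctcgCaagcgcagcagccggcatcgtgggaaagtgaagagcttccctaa
Rpl3-ps1: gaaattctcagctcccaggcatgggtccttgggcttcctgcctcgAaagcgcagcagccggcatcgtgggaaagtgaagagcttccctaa
The copy had 3013 RPKM and the gene 37.6 RPKM. Gapdh, the glycolytic enzyme often used as a reference gene, and its copy Gm13394 differ at 1 of 1000 aligned bases, again in capitals (copy on chromosome 2, 28934220 to 28934309, minus strand).
Gapdh: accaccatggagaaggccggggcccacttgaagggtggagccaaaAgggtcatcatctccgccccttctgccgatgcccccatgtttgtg
Gm13394: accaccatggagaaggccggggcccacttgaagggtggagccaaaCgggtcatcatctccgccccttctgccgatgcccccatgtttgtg
Gapdh was listed at only 7.87 RPKM and Gm13394 at 126 RPKM. Reads from such stretches cannot be assigned to gene or copy by sequence where no differing base is covered, and the sources used here do not say how they were counted.

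The pattern held for most parents with abundant copies. Processed pseudogenes, transcribed ones included, made up 1984 listed genes and 21.5% of the summed RPKM. A parent was found by sequence for 1859 of them, and these hold 99.7% of the class's RPKM. Parents whose name begins as that of a ribosomal protein gene numbered 80, and their 518 copies held 53.5% of the RPKM of matched copies. This count by name can take in related genes, and it misses Rpl24, whose copy Gm9385 had 1103 RPKM. Of the 231 parents whose copies sum to at least 100 RPKM, 198 had copies that sum to more than the parent itself. These parents were chosen for high copy values, which favours that outcome, and the sums are not scaled for length. Without this limit, copies summed to more than the parent for 56 of 76 ribosomal protein parents and 311 of 817 others. Rps6, a small-subunit protein, stood at 9.66 RPKM beside its copy Rps6-ps4 at 1415 RPKM, which is identical over all 750 aligned bases. Rpl37a stood at 173 RPKM beside Gm4149 at 6711 RPKM. Npm1, the nucleolar protein nucleophosmin, had 286 RPKM while its 8 listed copies summed to 3223 RPKM. Most copies are shorter than the exons of their parent, so such sums overstate the reads they hold. With copies scaled to the parent's length and added, Rpl37a came to 1489 RPKM and Npm1 to 827 RPKM.

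Within a family the RPKM sat mostly in 1 copy. Among the 137 parents with at least 2 listed copies that sum to 100 RPKM or more, the top copy held a median of 93.7% of the copies' RPKM, and in 83 it held 90% or more. The top copies had a median RPKM of 387 and a median identity with the parent of 99.1%. The other 531 copies had a median RPKM of 0.651 and a median identity of 96.0%. The top copy is the highest by definition, and the families were chosen for the summed RPKM of their copies. The contrast in RPKM and part of the 93.7% therefore follow from the choice. Identity was not used to pick the top copy. Over the aligned length 26 of the 137 top copies were identical to the parent, compared with 8 of the other 531. The same held for protein-coding gene models that carry only a number as name. Of 11 such models at 100 RPKM or more, 10 matched a named protein-coding gene by the rule used for pseudogenes, and for 9 of the 10 the named gene was lower. The models were chosen for a high value, which favours a lower named gene. Gm16286 was the model without such a match. Gm10260, for example, had 2947 RPKM and is 99.1% identical to Rps18, which had 25.4 RPKM.

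**Figure D2:**
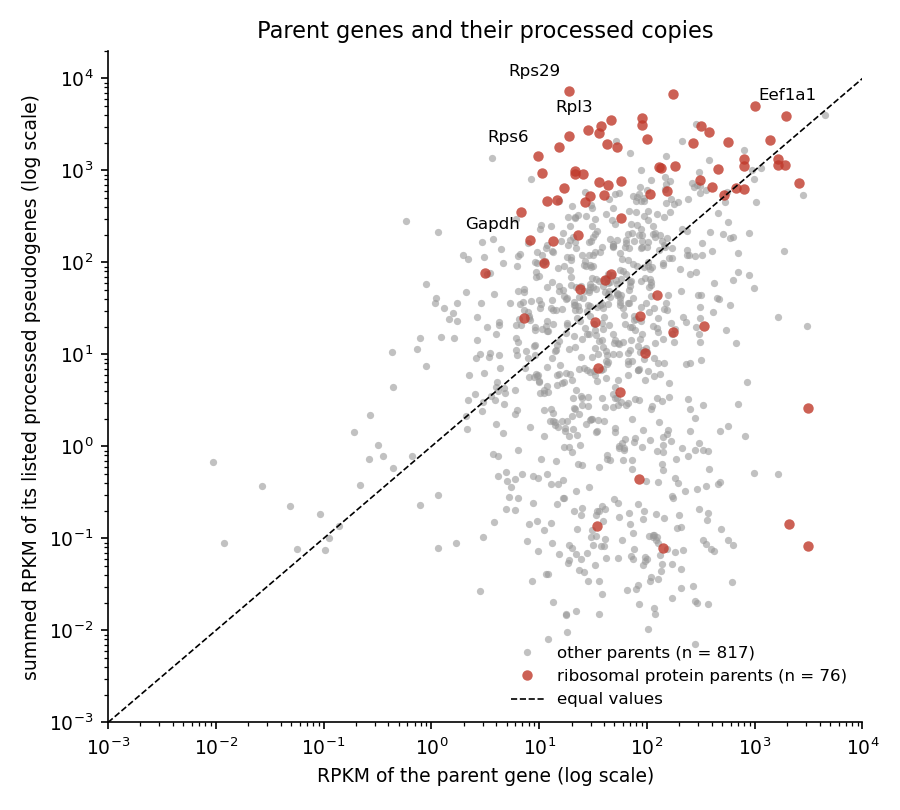
Each point is a parent gene, with its own RPKM on the x axis and the summed RPKM of its listed processed pseudogenes on the y axis (both log scales), for 76 ribosomal protein genes in red and 817 other genes in grey. Above the dashed line of equal values lie 56 ribosomal protein parents and 311 others, with Rps29 near the top left of the red points. Only listed parents are plotted. Ribosomal protein genes were picked by a narrower name rule than in the text, and Rpl24 is among the grey points.

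By gene class, protein-coding genes held 66.0% of the summed RPKM and processed pseudogenes (the class without the transcribed ones) 20.0%. Long intergenic RNAs (lincRNA) held 7.09%, miRNA genes 1.62%, transcribed processed pseudogenes 1.49% and snoRNA genes 1.03%. These shares depend on gene length. When RPKM is multiplied by annotated exon length, so that reads are summed, protein-coding genes held 90.2%, processed pseudogenes 4.01%, lincRNAs 4.57%, miRNA genes 0.0340% and snoRNA genes 0.0379%. The read-based shares use the lengths of the annotation, which for 13113 of the listed genes are those of another version of the gene model, so they are approximate. The 290 genes not found in the annotation have no class and no length, and count as 0 by reads. They held 1.30% of the summed RPKM. Some are pseudogenes by name, such as Eif4a-ps4 at 1510 RPKM and Rps10-ps2 at 915, and these are outside the pseudogene totals.

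**Figure D3:**
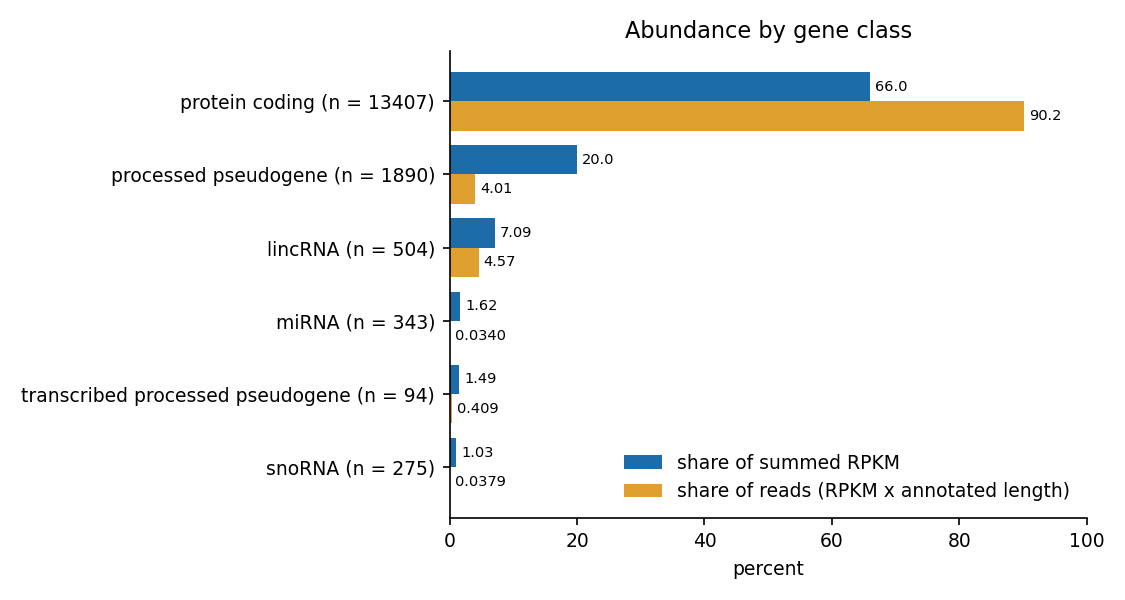
Percent of the summed RPKM (blue) and of the summed reads (orange) held by each of 6 gene classes, with the number of listed genes in brackets. Protein-coding genes go from 66.0% by RPKM to 90.2% by reads, and processed pseudogenes from 20.0% to 4.01%.

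The lincRNA share came from 1 place. Gm26924 (called Gm42418 in the annotation, chromosome 17, 39846958 to 39848788, plus strand) had 51288 RPKM, 6.42% of the summed RPKM. Its neighbour Gm26917 (39843013 to 39846341) had 3527 RPKM. On the opposite strand the annotation places an rRNA gene, CT010467.1, at 39846353 to 39848827, which overlaps Gm26924 and is not listed. These 2 lincRNAs held 96.7% of the RPKM of the class, and the other 502 listed lincRNAs together held 0.236% of all RPKM. Malat1, a nuclear RNA found in most cell types, came next at 206 RPKM, then A430104N18Rik at 134 and 4930461G14Rik at 129. Mir17hg, the host transcript of the miR-17 cluster, stood at 102 RPKM and Neat1, which builds nuclear paraspeckles, at 13.6. Meg3 was listed at 0.00314, and Kcnq1ot1 was not listed.

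The miRNA class was likewise led by 1 entry. Gm23935 is annotated as a miRNA gene of 57 nt (chromosome 16, 11144125 to 11144181, plus strand) inside the opposite-strand gene Zc3h7a and had 10519 RPKM. Its sequence is shown because it holds most of the class, and no part of it is marked.
Gm23935: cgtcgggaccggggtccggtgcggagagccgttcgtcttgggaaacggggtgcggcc
The entry mmu-mir-6236 had 746 RPKM and AC123611.1 had 625 RPKM, and the next, Gm25911, had 61.3. AC123611.1 lies on the same strand inside the pseudogene Rpl19-ps6. Of 343 listed miRNA genes 263 lie within a longer gene on their strand, and the median of these hosts was 19.6 RPKM. By number, most entries therefore cannot be told apart from fragments of a host transcript. Gm23935, which holds most of the RPKM of the class, was placed above only inside an opposite-strand gene. Among snoRNA genes 247 of 275 lie within a host, with a median of 46.1 RPKM for the hosts and 7.18 for the snoRNA genes themselves. Gm24357, in Taf1d, led the snoRNA genes with 1043 RPKM, and Rnu3a, the U3 RNA of rRNA processing, had 674. Non-coding hosts of snoRNAs were well represented. Of 14 such genes 12 were listed, all at 10 RPKM or more, with Zfas1 at 174, Gas5 at 143 and Snhg5 at 103 RPKM, while Snhg8 and Snhg18 were not listed. Rn7sk, the 7SK RNA that holds the elongation factor P-TEFb, stood at 538 RPKM although it carries no poly(A) tail.

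None of the 37 genes of the mitochondrial chromosome was listed, while 10 nuclear copies of mitochondrial genes were. Gm13340 (chromosome 2, 22588103 to 22589647, minus strand) is a copy of the cytochrome oxidase gene mt-Co1 over all 1545 nt with 97.6% identity and had 2231 RPKM. The stretch of 90 nt was picked for the most differences, with its 5 differing bases in capitals. Over the whole copy 37 of 1545 bases differ.
mt-Co1: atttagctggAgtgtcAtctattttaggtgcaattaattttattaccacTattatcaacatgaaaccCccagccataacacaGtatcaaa
Gm13340: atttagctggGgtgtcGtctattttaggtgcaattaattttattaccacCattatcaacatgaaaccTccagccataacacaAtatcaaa
Gm10222, 100% identical to mt-Nd4l over 294 nt, had 364 RPKM, and Gm4076, a copy of mt-Nd5 at 95.2% identity, had 209. Gm13341, a copy of mt-Co2, had 0.422 RPKM. Together the 10 copies held 0.368% of the summed RPKM. The sources used here do not say whether the mitochondrial chromosome was part of the authors' count.

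The transcription factors of the erythroid program were all present. All 18 on the list lay above 1 RPKM, 17 of 18 at 10 or more and 5 at 100 or more, and their median was 39.7 RPKM, higher than 86.6% of annotated protein-coding genes. Klf1, the factor that binds CACCC elements of the adult beta-globin promoter (chromosome 8, 84901928 to 84905291), led with 428 RPKM. Gata1, the master regulator of erythroid genes (X, 7959260 to 7978071), had 211 RPKM, and its cofactor Zfpm1 (FOG1) 178. Ldb1, which joins GATA1 and TAL1 complexes into loops between enhancer and promoter, had 180 RPKM. Its partners were lower, with Lmo2 at 86.0 and Tal1 at 40.3 RPKM. Cbfa2t3 (ETO2), a corepressor in the same complex, had 117 RPKM, and Gfi1b, a repressor needed in red cell and platelet precursors, 87.6.

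None of the other members of the list reached 100 RPKM. Nfe2, the erythroid subunit of NF-E2, had 69.2 RPKM, and its small partners Mafg and Mafk 22.7 and 20.8. Bach1, a heme-regulated repressor that competes for the same sites, had 28.4 RPKM. Of the factors that silence embryonic and fetal globin genes, Zbtb7a (LRF) had 32.1 RPKM. Bcl11a, at 14.2, and Sox6, at 5.20 RPKM, were the lowest of the list. Foxo3, which acts late in maturation, had 36.0 RPKM. Among GATA factors, Gata1 was 42.6 times Gata2, the factor of earlier progenitors, which had 4.94 RPKM, and Gata3 had 1.21.

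Globin levels were low beside these regulators. Of 10 globin genes with an identifier 8 were listed, 4 at 1 RPKM or more and none at 100. Hba-a1, adult alpha-globin (chromosome 11, 32283511 to 32284465), had 38.3 RPKM from 1095 reads, and the counting interval (exact Poisson, 95%, counting error only) runs from 36.0 to 40.6. Hbb-bs, an adult beta-globin (chromosome 7, 103826534 to 103828096), had 19.6 RPKM, and Hbb-bt, the neighbouring adult gene, 5.61. Klf1 was thus 11.2 times Hba-a1 and 21.8 times Hbb-bs per unit length. The embryonic genes lay under 1, with Hbb-bh1 at 0.185, Hbb-y at 0.0858 and Hba-x at 0.0302 RPKM. Of the theta-globin genes Hbq1b had 3.40 RPKM from 87 reads and Hbq1a 0.282 from 6 reads. Hba-a2 and Hbb-bh2 were not listed, and the names Hbb-b1 and Hbb-b2 had no identifier in the annotation. Hba-a1 and Hba-a2, and likewise Hbb-bs and Hbb-bt, are nearly identical pairs. Their values are therefore uncertain in the same way as those of genes with pseudogene copies. In a bulk sample, here and in the lists that follow, fewer cells that make an RNA and less of it per cell cannot be told apart.

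The upstream windows of 5 of these genes are shown because they hold the motifs of the factors just described. Each is the 150 nt before a start site in RefSeq (GRCm38.p6), written along the gene's strand, with every GATAA or CACCC on either strand in capitals (TTATC and GGGTG are the same motifs on the other strand). In mm10 coordinates they lie at chr8:84901832-84901981 for Klf1, chrX:7967911-7968060 for Gata1, chr9:21963577-21963726 for Epor, chrX:150547267-150547416 for Alas2 and chr7:103827929-103828078 for Hbb-bs. In GENCODE the models of Klf1, Gata1, Alas2 and Hbb-bs begin further upstream than these start sites.
Klf1: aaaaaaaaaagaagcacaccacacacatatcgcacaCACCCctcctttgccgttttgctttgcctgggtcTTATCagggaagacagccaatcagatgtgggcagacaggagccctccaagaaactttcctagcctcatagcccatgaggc
Gata1: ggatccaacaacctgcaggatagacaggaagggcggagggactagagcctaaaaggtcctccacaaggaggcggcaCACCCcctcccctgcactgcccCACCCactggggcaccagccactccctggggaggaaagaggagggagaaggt
Epor: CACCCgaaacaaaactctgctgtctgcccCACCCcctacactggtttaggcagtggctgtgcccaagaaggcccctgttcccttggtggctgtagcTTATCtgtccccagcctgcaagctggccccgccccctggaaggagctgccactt
Alas2: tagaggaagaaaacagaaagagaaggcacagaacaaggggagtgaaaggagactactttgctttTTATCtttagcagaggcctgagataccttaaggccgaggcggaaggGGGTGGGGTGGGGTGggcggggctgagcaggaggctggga
Hbb-bs: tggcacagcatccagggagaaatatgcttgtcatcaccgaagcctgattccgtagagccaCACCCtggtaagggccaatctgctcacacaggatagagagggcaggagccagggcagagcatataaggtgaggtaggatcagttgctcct
Klf1, Epor and Alas2 each hold 1 GATAA match, and Gata1 and Hbb-bs hold none in these 150 nt. All 5 windows hold CACCC, with 1 match in Klf1, 2 in Gata1, 2 in Epor, 3 in Alas2 and 1 in Hbb-bs. Klf1 and Hbb-bs, which share a single CACCC match, lay far apart in level at 428 and 19.6 RPKM.

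Over the longer window of 250 nt before each start, 16522 protein-coding genes had a sequence, and a gene was counted when any of its start sites held the motif on either strand. GATAA was found for 23.1% of these genes, CACCC for 57.1% and both for 10.7%. Both motifs were found for 7 of the 16 erythroid transcription factors with a window, 6 of 9 globins, 4 of 14 heme genes, 3 of 13 iron genes, 5 of 15 membrane genes and 4 of 10 signalling genes. Among granulocyte and macrophage markers the count was 2 of 21. A gene with more start sites has more chances of a match, and the lists were not matched for this. The iron genes with both motifs, Fth1, Tfr2 and Steap3, have 2, 3 and 4 start sites, while each globin with both has 1. The 6 globins include the nearly identical pairs Hba-a1 with Hba-a2 and Hbb-bs with Hbb-bt. The share with GATAA was 30.9% for genes not listed and 16.9% for genes at 100 RPKM or more, and the share with the GC box GGGCGG was 23.9% and 64.7%. Among globins 7 of 9 genes held CCAAT and 0 of 9 held GGGCGG, while GGGCGG was found for 14 of the 16 erythroid transcription factors and CCAAT for 6. Over all genes with a window the shares were 39.2% for CCAAT and 47.5% for GGGCGG. A match is a run of letters and not a bound site.

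The heme pathway was well represented. Of 17 genes for heme synthesis and transport 16 were listed, all above 1 RPKM and 14 at 10 or more, with a median of 44.2. Alas2, the erythroid form of the rate-limiting enzyme ALA synthase, had 79.0 RPKM and was 10.6 times the housekeeping form Alas1, at 7.43. Other enzymes were higher, with Alad at 159 and Cpox at 167 RPKM. Uros, the fourth enzyme, was far lower at 8.04 RPKM, while Urod had 90.4. The last steps stood at 35.8 RPKM for Ppox and 32.7 for Fech, which inserts the iron. Among transporters, Tmem14c, which brings the precursor protoporphyrinogen into mitochondria, led the list with 279 RPKM. Slc25a38, the mitochondrial glycine carrier, had 44.2 RPKM, Abcb10 44.6, and the heme exporter Flvcr1 18.5, while Flvcr2 was not listed. Of the genes that break heme down, Blvrb, a biliverdin reductase abundant in red cells, had 225 RPKM, compared with 45.3 for Hmox1 and 54.7 for Hmox2.

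Iron genes were led by storage. Fth1 had 1865 RPKM and Ftl1, the ferritin light chain, 418, a ratio of 4.46. The chaperones that hand iron to ferritin were also abundant, with Pcbp1 at 425 and Pcbp2 at 331 RPKM. Tfrc, the transferrin receptor, had 103 RPKM and Tfr2 55.9. Slc40a1, the iron exporter ferroportin, was the lowest of the 18 members at 9.65 RPKM. Of the mitoferrins, which carry iron into mitochondria, the widely expressed Slc25a28 (65.1 RPKM) was 3.39 times the erythroid Slc25a37 (19.2 RPKM). Glrx5, which works in iron-sulfur cluster assembly, had 306 RPKM. Ireb2 and Aco1, the sensors that bind iron-responsive mRNAs, had 49.5 and 38.4 RPKM. All 18 members were listed and lay above 1 RPKM.

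Membrane genes split. Of 22 members, 21 lay above 1 RPKM and 20 at 10 or more, with a median of 42.5. The surface proteins Bsg and Icam4 led with 443 and 259 RPKM. Of the membrane skeleton, Sptb, erythroid beta-spectrin, had 51.5 RPKM. Epb41 (protein 4.1) had 107 RPKM, Add2 121 and Ank1, the ankyrin that ties spectrin to the membrane, 32.0. The blood group and Rh proteins ranged widely, with Rhag at 114, Ermap at 84.4, Kel at 47.9 and Rhd at 18.1 RPKM. Gypc, a glycophorin, had 31.7 RPKM. In contrast, Slc4a1, the anion exchanger band 3, had 0.122 RPKM and Epb42 (protein 4.2), which binds band 3, had 2.28. The related exchanger Slc4a2 had 25.4 RPKM. Tropomodulin was mainly Tmod3 at 121 RPKM, 7.43 times the erythroid Tmod1 at 16.3.

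Late enzymes were uneven as well. The carbonic anhydrases Car1 and Car2 had 806 and 261 RPKM, and Prdx2, an abundant antioxidant of red cells, had 106. Bnip3l, the receptor that clears mitochondria from reticulocytes, had 67.6 RPKM, and Cat, which degrades hydrogen peroxide, 61.2. Alox15, a lipoxygenase of late maturation, had 0.208 RPKM from 18 reads (0.123 to 0.329, counting error only). Trim58 and Tspo2, also of late precursors, had 5.94 and 6.48 RPKM, and Bpgm, which makes the hemoglobin regulator 2,3-bisphosphoglycerate, had 8.60. In all, 12 of 13 lay above 1 and 9 at 10 or more, with a median of 29.4.

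**Figure D4:**
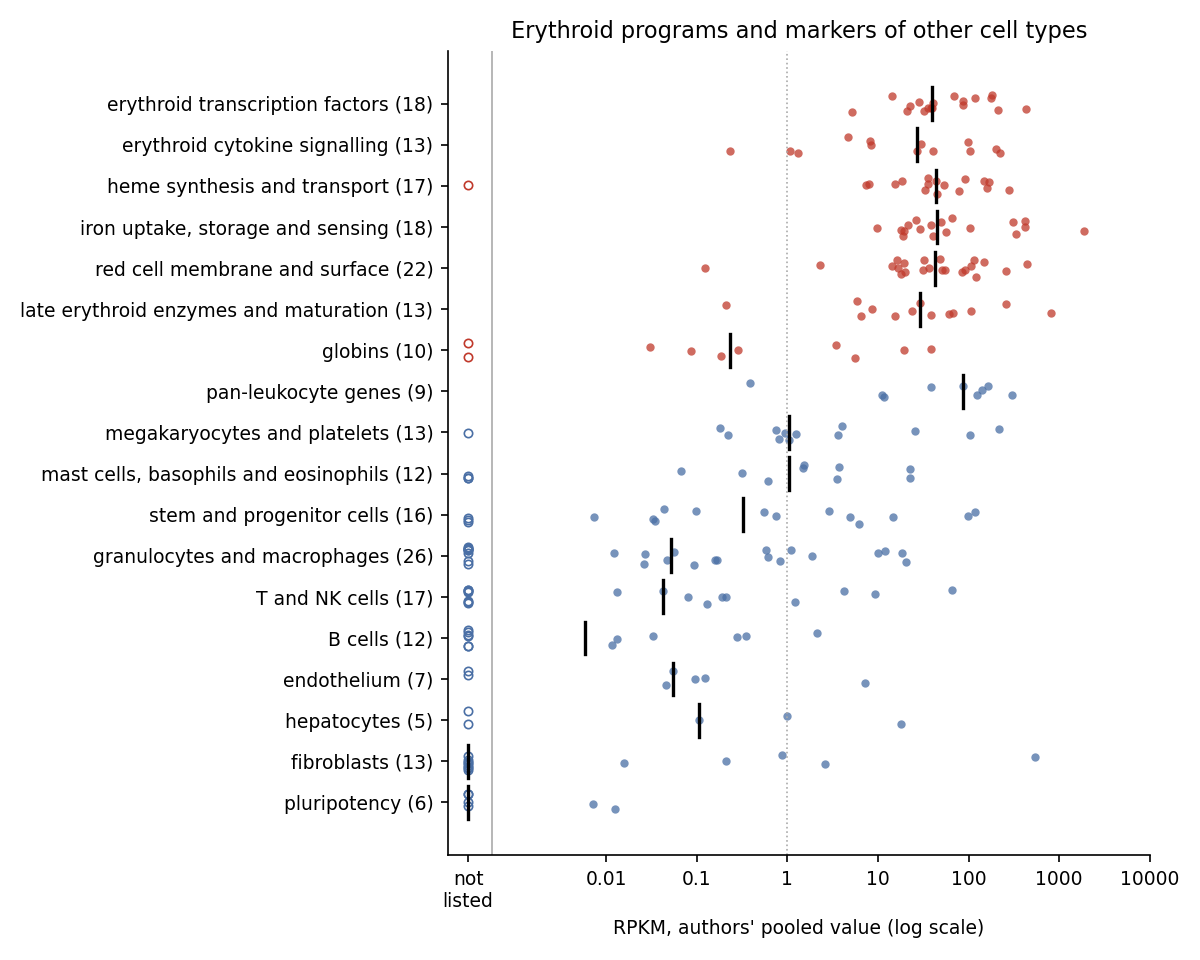
RPKM (log scale) of every member of 7 erythroid lists (red) and 11 lists of other cell types (blue), with the number of genes in brackets. Filled points are listed genes, open points at the left are genes not listed, black bars are list medians with those counted at 0, and the dotted line marks an RPKM of 1. Medians of the 6 erythroid lists other than globins lie between 27.0 and 44.8, and the globin median is 0.233.

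Erythropoietin signalling was represented from receptor to kinase. Epor, the erythropoietin receptor, had 225 RPKM and Jak2, the kinase bound to it, 99.8. Stat5a and Stat5b, which JAK2 activates, had 39.2 and 38.4 RPKM. Targets of this pathway differed, with Pim1, a survival kinase, at 103 RPKM, the feedback inhibitor Cish at 4.68 and Socs3 at 1.08. Csf2rb, the beta chain shared by receptors for interleukin 3, interleukin 5 and GM-CSF, had 200 RPKM, and its mouse paralog Csf2rb2 40.4, while the alpha chain Il3ra had 1.32. Kit, the stem cell factor receptor of erythroid progenitors, was at 0.234 RPKM, and Epor was 963 times that level.

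Genes linked to erythroleukemia were abundant. Of 13 members 12 lay above 1 RPKM and 11 at 10 or more, and the median was 48.5. Cdkn2a, the locus of p16 and p19ARF (chromosome 4), had 292 RPKM and its neighbour Cdkn2b 2.06. Myb, which keeps progenitors dividing, had 280 RPKM, and Myc 168. Spi1 had 105 RPKM, 5.00 times Fli1, another ETS factor activated in such leukemias, at 21.0. Ets1 had 0.0435 RPKM. Trp53, which is often lost in these leukemias, had 39.7 RPKM and its ubiquitin ligase Mdm2 19.1. Among survival proteins of the BCL2 family Mcl1 led with 243 RPKM, and Bcl2 and Bcl2l1 had 27.0 and 8.30. Of D-type cyclins, Ccnd2 had 81.3 RPKM and Ccnd3 47.2, while Ccnd1 was not listed. Cdk4, their kinase partner, had 442 RPKM and Cdk6 55.9. The protein products of Cdkn2a share exons, and the table gives 1 value for the locus.

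Markers of other blood lineages were mostly low, with single genes at higher levels in several lists. Of 13 megakaryocyte and platelet genes 12 were listed and 7 lay above 1, with a median of 1.04 RPKM. Pf4, platelet factor 4, had 216 RPKM and Itga2b (CD41) 103, but Ppbp, a chemokine stored beside Pf4, had 0.814. Tubb1, the platelet tubulin, had 0.222 RPKM, Vwf 0.178, and Selp was not listed. Itgb3, the partner of Itga2b, had 1.23 RPKM. Stem and progenitor genes had a median of 0.324. Lyl1, a relative of TAL1, stood at 119 RPKM and Cd48 at 97.8, while Cd34 had 0.0433, Flt3 0.00731, and Hoxa9 and Mecom were not listed.

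Granulocyte and macrophage genes had a median of 0.0519 RPKM, and 9 of 26 were not listed, among them S100a8, S100a9, Csf3r, Ly6g and Irf8. The highest were Cebpa, a myeloid transcription factor, at 20.4 RPKM, Prtn3, proteinase 3, at 18.5, and Fcgr3 at 12.0. Mpo and Elane, the other main granule enzymes, had 0.166 and 0.0925. The mast cell list was led by Hdc, which makes histamine, at 22.5 RPKM and Il1rl1, the interleukin 33 receptor, at 22.3, with Cpa3 at 3.69 and Epx, Prss34 and Tpsb2 not listed. Of 12 B cell genes only Cd79b exceeded 1, at 2.12 RPKM, and Pax5, Ebf1, Ms4a1, Rag1, Ighm and Blnk were not listed. Of 17 T and NK cell genes 4 lay above 1, namely Thy1 at 65.3, Lck at 9.21, Tcf7 at 4.19 and Gata3 at 1.21, and Cd3e, Cd4, Cd8a and Cd2 were among the 7 not listed.

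Genes shared by white blood cells were mostly high. Of 9 such genes 8 lay above 10 RPKM and 4 above 100, with a median of 87.5. Coro1a, a regulator of actin, had 298 RPKM, Rac2, the blood-cell form of this GTPase, 165, Laptm5 141 and Spn (CD43) 124. Ptprc (CD45) had 11.8 RPKM and Cd52 0.382 from 16 reads. Outside the blood, the fibroblast list had Vim, an intermediate filament also made by many blood cells, at 541 RPKM, Pdgfrb at 2.60 and Col1a1 at 0.873, while 8 of 13, among them Col1a2, Col3a1, Fn1 and Dcn, were not listed. Of 7 endothelial genes only Tek exceeded 1, at 7.12 RPKM. Of 5 hepatocyte genes only Apoa1 did, at 18.0 RPKM, and Alb was not listed. Of 6 pluripotency genes 2 were listed, Nanog at 0.0127 and Lin28a at 0.00710 RPKM.

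Growth programs were at high levels. S phase genes were all above 10 RPKM, 17 of 17, with a median of 111, higher than 95.5% of protein-coding genes. The replicative helicase was led by Mcm5 at 471, Mcm6 at 371 and Mcm3 at 341 RPKM. Rrm1 and Rrm2, the subunits of ribonucleotide reductase, had 292 and 114 RPKM, and cyclin E2 (Ccne2), the lowest of the list, had 26.5. All 16 mitosis genes lay above 10 as well, with a median of 170. Mki67, the proliferation marker Ki-67, had 513 RPKM, Top2a 301 and Cenpa, the centromeric histone, 201. Ccnb1 was lowest at 47.9. Among the 8 genes on the list of cell cycle inhibitors Cdkn2d (p19INK4d) was highest at 122 RPKM. Cdkn1a (p21) had 32.3, Cdkn1b (p27) 26.5 and Rb1, the retinoblastoma protein, 14.8. Cdkn2a, the p16 locus described above, is not on that list and was higher at 292 RPKM.

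Replication-dependent histone genes, whose mRNAs end in a stem-loop and carry no poly(A) tail, stood lower than the other S phase genes. Of 67 genes 62 were listed, but only 18 lay at 10 RPKM or more and 1 at 100, with a median of 5.06. Hist1h2af led with 135 RPKM, then Hist2h2ac at 60.1 and Hist1h1e at 33.6. Slbp, the protein that binds their stem-loop, had 118 RPKM. The RNA was selected on oligo dT, and the part that this selection plays in the low histone values was not tested.

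The lists of elongation factors and of the chaperonin CCT had the highest medians of those described here, and the other lists of protein synthesis stood lower. The 6 elongation factor genes had a median of 790 RPKM, and the 8 genes of the chaperonin CCT, which folds actin and tubulin, had a median of 573, with Cct6a at 1197, Cct5 at 1116 and Cct4 lowest at 314. Ribosomal protein genes had medians of only 57.4 RPKM for 47 large-subunit genes and 68.5 for 32 small-subunit genes. When the RPKM of the processed copies, scaled by length, was added to each parent, these medians became 277 and 723. Levels within the ribosome therefore spanned a wide range as listed, from Rpl4 at 4768 to Rpl29 at 3.14 RPKM in the large subunit, and in the small one Rps13 was lowest at 8.24 RPKM. Adding the copies gave 37.1 for Rpl29 and 38.0 for Rps13, and the lowest members were then Rpl35a at 9.63 and Rps27 at 10.0 RPKM. The 20 cytosolic aminoacyl-tRNA synthetase genes, led by Nars at 454 and Gars at 405, all lay above 10, and Cars was lowest at 55.7. Initiation factors had a median of 93.9 with Eif3g highest at 1195. Pabpc1, the cytoplasmic poly(A) binding protein that the CLIP samples address, had 1143 RPKM, 13.0 times Pabpc4. With processed copies added the levels were 1313 RPKM for Pabpc1 and 265 for Pabpc4.

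Genes of glycolysis and respiration were at high levels. Pkm had 1637 RPKM, Ldha 1027 and Aldoa 977, and the median of 14 glycolytic genes was 142. Pklr, the pyruvate kinase of mature red cells and liver, had 44.3 RPKM, 37.0 times less than Pkm, and Ldhb was not listed. Glucose entry was shared between Slc2a1 at 92.2 and Slc2a3 at 97.0 RPKM. Pgk1 and Eno1 were listed at only 21.0 and 19.2 RPKM beside Gapdh at 7.87. The 82 nuclear-encoded respiratory chain genes had a median of 173 RPKM, led by Atp5b at 1146, Atp5k at 991 and Atp5c1 at 890. Cox4i1, the common form of cytochrome oxidase subunit 4, had 453 RPKM and Cox4i2 0.144. Proteasome genes had a median of 183, with Psmb4 at 1305. Of the variant subunits, Psmb9, an immune form, had 2.14 RPKM, and Psma8, a testis form, was not listed. Cholesterol synthesis genes were at moderate levels, with a median of 37.1, none at 100, and Fdps highest at 75.7.

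Genes of the unfolded protein and integrated stress responses were abundant, with a median of 232 RPKM and 10 of 13 at 100 or more. Besides Calr and Hspa5, Hsp90b1 had 710 RPKM. Atf4, the transcription factor translated under amino acid stress, had 810 RPKM, and its targets Asns 374, Trib3 232 and Ddit3 (CHOP) 171. Another target, Chac1, had 31.6. Genes of serine and one-carbon synthesis, many of which ATF4 also controls, had a median of 208, with Shmt2 at 446, Psat1 at 356 and Phgdh at 294 RPKM. Immediate early genes had a median of 11.1. Junb and Ier2 stood at 56.8 and 57.6, but Fos was at 0.639 and Jun at 0.356. Interferon response genes were low, with a median of 0.682 RPKM, and none of 12 at 10.

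**Figure D5:**
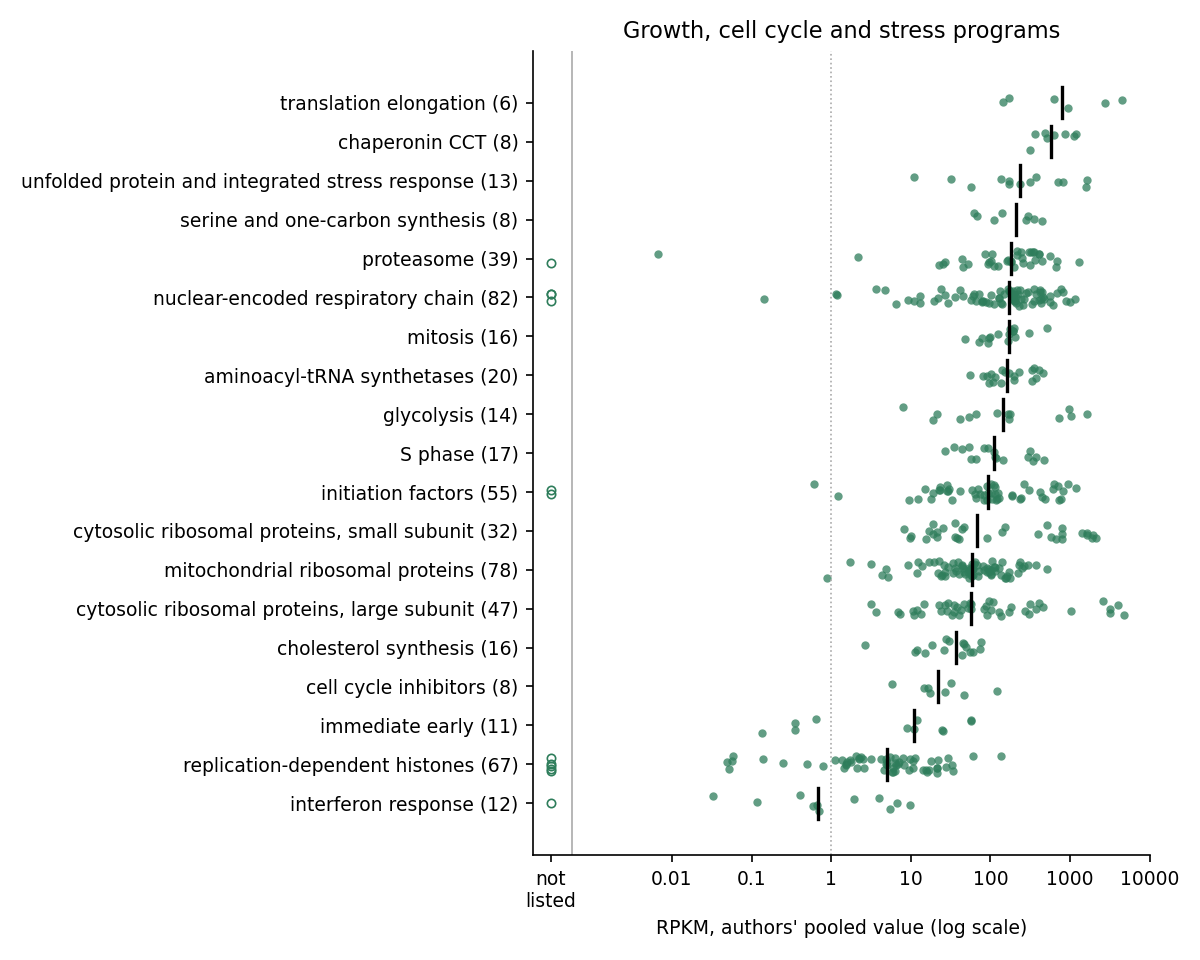
RPKM (log scale) of every member of 19 lists of growth, cell cycle and stress genes, with the number of genes in brackets and symbols as in the plot of lineage lists. Medians range from 790 for elongation factors to 0.682 for interferon response genes, and ribosomal protein genes spread from under 10 to over 1000.

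Among paralogs that can replace each other, levels were often unequal. Hsp90ab1 was 9.83 times its stress-inducible relative Hsp90aa1, at 314 RPKM, and with processed copies added the levels were 3099 and 637 RPKM. Tubb5, a common beta-tubulin, had 740 RPKM, Tubb4b 237, Tubb2a 87.8 and the neuronal Tubb3 1.28. Of eEF1A genes only Eef1a1 was listed. Actb had 785 RPKM and Actg1, the other cytoplasmic actin, 6.64, which became 58.3 with its processed copies. Of the pores of the mitochondrial outer membrane, Vdac1 had 326, Vdac2 64.9 and Vdac3 34.4 RPKM. Peroxiredoxins lay closer together, from Prdx3 at 178 to Prdx4 at 41.1 RPKM. Of KLF factors, Klf1 stood at 428 RPKM, while Klf3 had 17.6, Klf10 16.3 and Klf13 12.9, and Klf2 and Klf4 were not listed. Of NF-E2 relatives Nfe2l1 had 43.8 and Nfe2l2 23.7 RPKM.

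By chromosome, protein-coding RPKM was highest in sum for chromosome 9, with 9.55% of the protein-coding total, which holds Rpl4 and Eef1a1. The share of protein-coding genes listed ranged over the autosomes from 47.7% for chromosome 14 to 71.5% for chromosome 11. On the X chromosome it was 45.8%, with 34.0% at 1 RPKM or more. Among genes at 1 or more the X median was 19.9 RPKM, inside the autosomal range of 15.9 for chromosome 6 to 27.6 for chromosome 15. Of the Y-linked genes Ddx3y had 70.0 RPKM, Eif2s3y 66.4, Uty 11.5 and Kdm5d 7.52, while Usp9y had 0.00350. Xist, the RNA that coats an inactive X chromosome, had 0.0206 RPKM.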

How the data were processed

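The values are the authors' deposited RPKM, 1 per gene for both mRNA-seq samples together. Per the submitters' processing notes, cutadapt 1.4.2, TopHat2 2.0.12 and HTSeq 0.6.0 were used with build mm10, and the step each served is not named. The handling of reads with several matches, of overlapping genes and of strand is not given in the sources used.

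Identifiers were matched without their version to GENCODE M21 (mm10) with Python 3.11.15 and pandas 2.3.3, and 98.4% were found and 290 were not. Gene classes, coordinates and exon lengths come from that annotation, and upstream windows from RefSeq. The search for the RPKM of 1 read was tested on simulated data. Pseudogenes were assigned to the protein-coding transcript with the best BLAST 2.17.0 match, at 80% identity over 50% of the pseudogene or more. Genes not listed count as 0 in list medians.

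The 43 gene lists and 48 families were chosen with earlier results of these data known. Named genes are the 20 highest of all and of protein-coding genes, the 5 highest of other classes, and each list's 3 highest, its lowest and its unlisted members. For lineage lists and families any member may be named, and a few further list members, paralogs and copies were chosen after their values were seen. No comparison between groups was made, and the CLIP-seq lists were not used. A few list members are not reported here.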

Additional observations from a re-analysis of the deposited data

How the results depend on the processing

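With 1 pooled value a gene, depth limits single low genes and no error between samples could be had. No paired analysis was possible because both mRNA-seq replicates share 1 value, and for the same reason leaving out a replicate could not be done. The 12473 genes at 1 RPKM or more became 13457 at a threshold of 0.5, 11426 at 2 and 10211 among protein-coding genes. The share held by the 100 highest genes, 30.7%, was 20.1% by reads and 21.1% among protein-coding genes. Protein-coding genes held 90.2% by reads and 69.2% without genes under 200 nt. Processed pseudogenes held 4.01% and 19.0% under these settings, lincRNAs 4.57% and 7.44%, miRNA genes 0.0340% and 0%, and snoRNA genes 0.0379% and 0.113%. With only genes at 1 RPKM or more, lincRNAs held 7.10% and miRNA genes 1.61%. Adding processed copies to their parents raised the median over 1.5 times in 2 of 43 lists, the ribosomal protein lists. Leaving out unlisted genes did so in 11 lists, among them globins, from 0.233 to 1.84 RPKM.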
